A study of Mus musculus with 77 samples.

Results

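Somatostatin (Sst) was present at a clear level in some pools of cells expressing 6S-A Ngn3 at 2 days and almost absent from the others, and the pools were compared on that basis. The 18 libraries of this group, out of 77 in the series, were each made from a pool of 50 GFP-positive cells sorted from mouse pancreatic ductal organoids. A library counted as holding Sst when more than 10 of every 1000000 reads on genes (CPM) came from the gene, and 9 libraries did while 9 did not. No library lay near that limit, since the highest value at or below it was 1.99 CPM and the lowest above it was 45.1 CPM. Because Sst itself made the classes, its levels are given as a description and were not tested.

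All cells came from C57BL/6 ductal organoids, and those of 2 days were at passage 2. They had been infected with an inducible (Tet-on) lentivirus pair that carried GFP only, GFP with WT Ngn3, or GFP with 6S-A Ngn3, the form whose serine-proline phosphorylation sites were mutated. Each group of 2 days comprised 3 biological replicates with 6 technical repeats each. At 8 days there were 5 libraries of WT Ngn3 and 6 of 6S-A Ngn3, beside 6 no-color controls of each, and replicate 3 of that time was at passage 5. Ngn3 is driven here by an inducible promoter carried by a lentivirus, in cultured duct cells. These are therefore cells pushed toward the endocrine program in culture and not islet cells.

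Somatostatin is the hormone of pancreatic delta cells, which restrain the secretion of insulin and glucagon by neighboring cells. Ngn3, encoded by Neurog3, is the factor that commits duct-like progenitors to the endocrine lineage. From these progenitors come alpha, beta, delta, PP and epsilon cells, which make glucagon, insulin, somatostatin, pancreatic polypeptide and ghrelin. Mature delta cells are recognized by the transcription factor Hhex, the retinol carrier Rbp4 and the ghrelin receptor Ghsr beside Sst, whereas Isl1, a LIM-homeodomain factor, is shared by all islet cell types.

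Technical repeats 2 and 3 of replicates 2 and 3 differed by far less than any other pair of repeats, with a chi-square per gene of 2.16 and 1.75 against 5.96 to 42.3 for the other 43 pairs of the group. Each of these close pairs was summed and counted as 1 pool, which left 16 pools, 8 with and 8 without Sst. The labels do not say whether a close pair is 1 pool sequenced again, and with all 18 libraries kept apart 1 gene passed the edgeR test described further on (Th, adjusted p = 0.0452). Replicate 1 held Sst in 2 of 6 pools, replicate 2 in 3 of 5 and replicate 3 in 3 of 5. The labels call the pools of 1 replicate technical repeats, so p-values measure the spread between these pools, which may be technical.

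Within replicate 3 of every group of 2 days, repeats 5 and 6 lay apart from repeats 2 to 4. Repeats 5 and 6 differed from repeats 1 to 4 by a chi-square per gene of 29.2 to 35.7 in cells with GFP only, where repeats 1 to 4 differed among themselves by at most 9.09. With 6S-A Ngn3 the values between the sets were 22.1 to 42.3, and repeat 1 lay apart from repeats 2 to 4 as well, as it did with WT Ngn3. Mitochondrial reads made up 9.96 to 16.5% in repeats 1 to 4 and 4.70 to 7.29% in repeats 5 and 6 over the 3 groups. Pools 5 and 6 of 6S-A Ngn3 both held Sst, while of the other pools of that replicate only the close pair did, so the sets run partly with the classes and a block by replicate does not remove them.

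The 8 pools with Sst had 1707561 to 5424097 reads on genes and the 8 without had 1986304 to 4676282. In an exact two-sided permutation test within replicates, neither reads on genes (p = 0.741) nor the number of detected genes (p = 0.679), the share of spike-in reads (p = 0.409) or the share of mitochondrial reads (p = 0.213) separated the classes, and the adjusted p over these 4 measures was 0.741 for each.

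Among the pools with Sst, replicate 1 had 45.1 and 799 CPM, replicate 2 had 3099, 757 and 169 CPM, and replicate 3 had 70.1, 124 and 184 CPM. The gene was therefore spread over a wide range even among the pools that held it, and every replicate contributed. The pools without Sst lay between 0.248 and 1.78 CPM, which is 1 to 7 reads each, around the 3 reads taken here as the counting limit. In bulk pools a difference of this kind can reflect more cells that make somatostatin or more Sst RNA per cell, and these cannot be told apart. Counting limits of this kind cover counting error only, since the reads carry no molecular identifiers.

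Elsewhere at 2 days Sst was scarce. In cells with GFP only it ranged from 0 to 1.12 CPM in 18 libraries, none above the limit. With WT Ngn3, 1 of 16 pools exceeded the limit, the close pair of replicate 3 with 82.1 and 107 CPM in its libraries, and the other WT pools reached at most 1.16 CPM. At 8 days, 5 of 6 libraries of 6S-A Ngn3 held 866 to 2228 CPM and 3 of 5 of WT Ngn3 held 429 to 3063 CPM. The no-color controls of 8 days ranged from 0.387 to 15.4 CPM, with 1 of 12 above the limit. Whether the share of pools with Sst differs between the proteins was not tested.

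**Figure D1:**
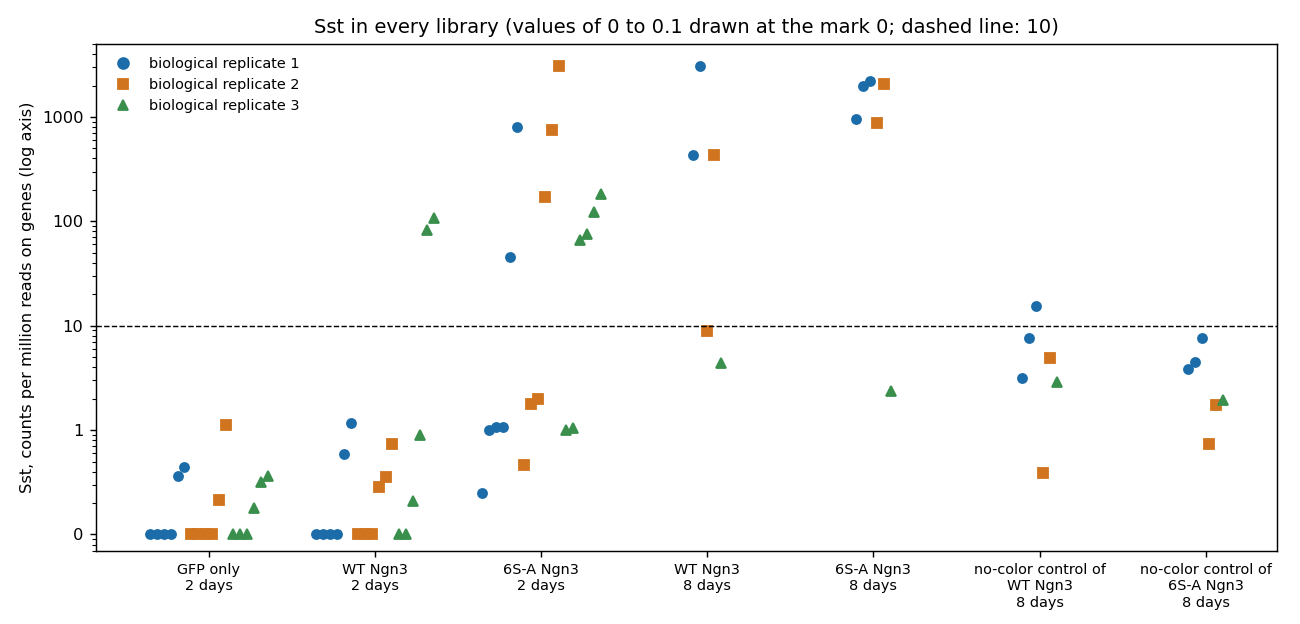
Sst in every library, in CPM of reads on genes on a log axis, with 1 point per library grouped by condition and colored by biological replicate, and the dashed line at 10. The 6S-A Ngn3 libraries of 2 days fall into a band at or below 1.99 and a band from 45.1 to 3099, with no library between them.

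Across the transcriptome, no gene passed the test between pools with and without Sst. With edgeR's quasi-likelihood test and biological replicate as block, 0 of 19629 genes tested (0%) had an adjusted p below 0.05, and the smallest adjusted p was 0.334. At an unadjusted p under 0.05 there were 711 genes (3.62%), of which 385 (1.96%) were higher and 326 (1.66%) lower with Sst. DESeq2 with the same block called 2 genes, Th and Igf1. The 10 genes with the smallest p are described next as genes that did not pass the edgeR test.

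Th headed this order. It encodes tyrosine hydroxylase, the rate-limiting enzyme of catecholamine synthesis, and lies on chromosome 7 from 142892752 to 142931128 (minus strand, GENCODE M21, GRCm38) with no other gene overlapping it. In the pools with Sst, Th stood at 7.15 and 11.1 CPM in replicate 1, at 34.0, 13.0 and 0.457 CPM in replicate 2 and at 10.8, 2.21 and 40.1 CPM in replicate 3. The pools without Sst had a median of 0 and a highest value of 1.06 CPM, and 5 of the 8 had no read. Pool 6 of replicate 2, with 2 reads, was the only pool with Sst that fell into the range of the pools without. The fitted log2 difference was 5.75 ± 0.98 (SE, 8 and 8 pools), a 53.8-fold difference with a 95% interval of 12.9 to 225, and it was positive in 3 of 3 replicates, as the same sign in 3 of 3 was for 25% of all genes tested.

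The call on Th changed with the setting. With the block the edgeR adjusted p was 0.334, and with no replicate block it was 0.0163. Summing the libraries per replicate and class, so that the 3 biological replicates became the units, gave an edgeR adjusted p of 0.00089, and DESeq2 gave 0.000315. Leaving out pool 6 of replicate 2 gave 0.000661 in edgeR, leaving out pool 6 of replicate 3 gave 0.0146, and leaving out replicate 2 gave 0.033. In settings chosen after seeing the data, the edgeR adjusted p was 0.861 with the sets of replicate 3 as separate blocks and 0.0135 with pools 5 and 6 of that replicate left out. Over the 35 alternative settings the adjusted p of Th ran from 8.33e-20 (edgeR with no filter on low counts) to 1.00, and it passed in 10 of them. These settings reuse the same pools, and Sst limits of 5 and 20 CPM leave the classes unchanged. The 10 are therefore not a share of independent tests.

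Sst and Th share a sequence in front of their start sites, which is shown here because Th had the smallest p of all genes. The 250 bases upstream of each RefSeq start site (GRCm38.p6, both on the minus strand, written 5′ to 3′ as transcribed) are given in lower case with each TGACGTCA, the full palindromic cAMP response element, in capitals. Sst is at chr16:23890845-23891094 and Th at chr7:142899996-142900245.
Sst: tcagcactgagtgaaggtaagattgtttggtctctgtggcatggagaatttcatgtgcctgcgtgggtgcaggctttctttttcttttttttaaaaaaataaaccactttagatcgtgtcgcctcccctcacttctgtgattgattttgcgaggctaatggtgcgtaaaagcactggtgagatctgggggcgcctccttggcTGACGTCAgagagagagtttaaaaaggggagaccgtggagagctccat
Th: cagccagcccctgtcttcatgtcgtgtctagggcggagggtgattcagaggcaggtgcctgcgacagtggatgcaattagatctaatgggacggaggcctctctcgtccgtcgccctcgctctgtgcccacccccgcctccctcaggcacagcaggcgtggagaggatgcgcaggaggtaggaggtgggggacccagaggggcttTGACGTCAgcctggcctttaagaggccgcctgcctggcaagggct
The element begins 48 bases before the start site in Sst and 45 bases before it in Th. It reads the same on both strands, and 508 of 32851 RefSeq promoters (1.55%) hold it in the same 250 bases. Of the 29 genes named by rule or singled out here, 26 had a promoter in the table and 3 held the element, namely Sst, Th and Chgb. The match was looked for after the values were seen and is a description of the sequence, not of a bound site.

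Igf1, which encodes insulin-like growth factor 1, was the next gene by p and was lower in the pools with Sst. Its levels with Sst were 4.91 and 3.86 CPM in replicate 1, 7.61, 8.48 and 9.59 CPM in replicate 2 and 1.23, 0.737 and 0.382 CPM in replicate 3. Without Sst they ranged from 7.19 to 18.6 CPM with a median of 11.7 CPM. The ranges overlapped only through the pools of replicate 2, while the 3 pools of replicate 3 were the lowest of all 16. The log2 difference was -1.97 ± 0.42 (SE), with an edgeR adjusted p of 0.521 and a DESeq2 adjusted p of 0.0178, and over the 35 settings its adjusted p ran from 0.000616 to 1.00. With the sets of replicate 3 as separate blocks the difference was -1.46 ± 0.39. Igf1 overlaps the annotated gene Igf1os, and reads that were ambiguous between genes were left out. Its counts may therefore be incomplete or not fully separable from those of Igf1os. With WT Ngn3, Igf1 was low in replicate 3 whether or not Sst was present, at 1.25 CPM in the pool with Sst and at 0.897, 0.215 and 0.212 CPM in 3 of the 4 pools without, while the remaining one had 16.6 CPM. At 8 days it ranged from 1.18 to 17.3 CPM in the 8 libraries with Sst (median 7.17) and from 1.81 to 4.83 CPM in the 3 others (median 3.62).

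**Figure D2:**
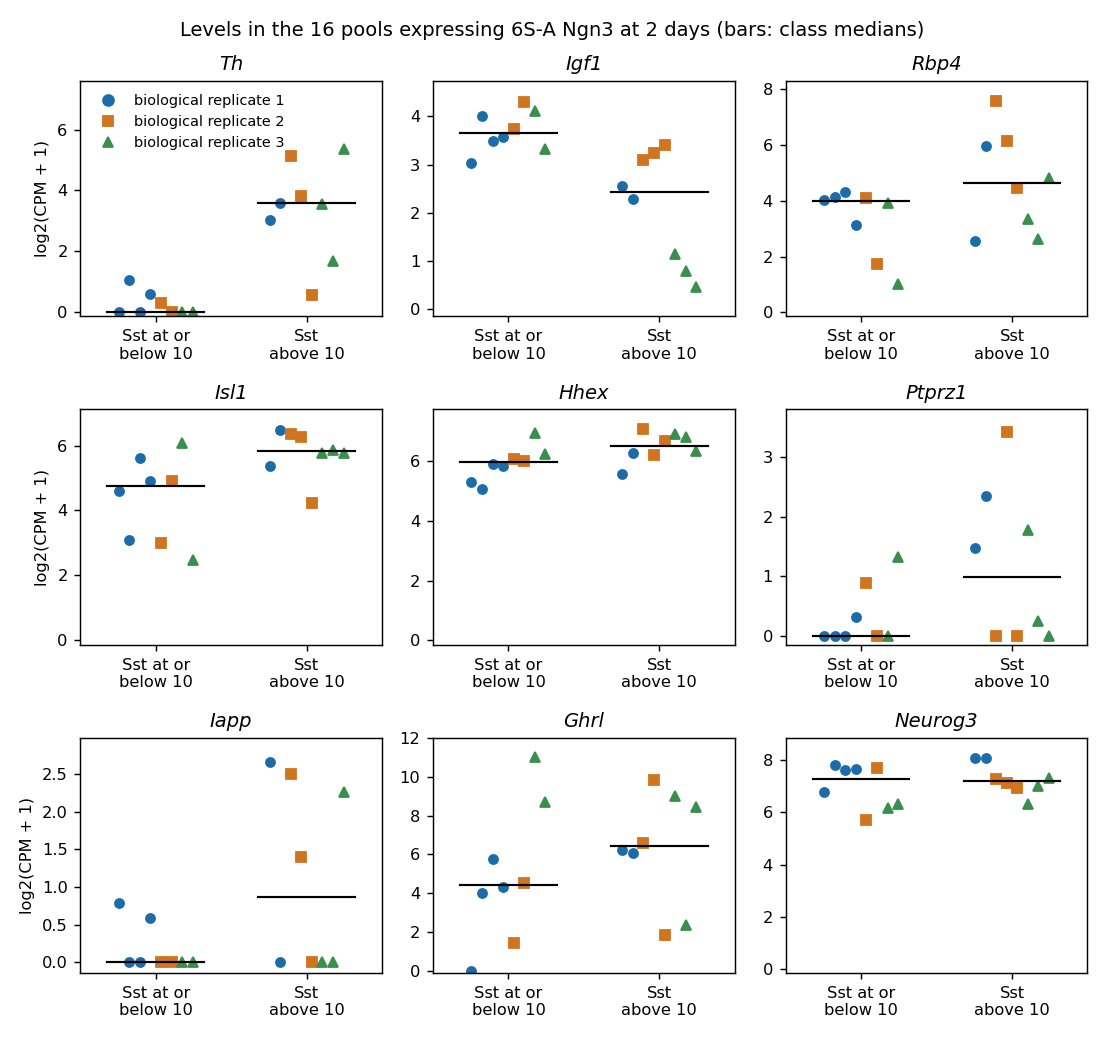
Levels of 9 genes in the 16 pools of 6S-A Ngn3 at 2 days, as log2(CPM + 1) on the vertical axis, with the pools split by Sst and colored by biological replicate, and bars at the class medians. Th is at most 1.06 CPM in the pools without Sst, Igf1 is lowest in the pools of replicate 3 with Sst, and the remaining panels show classes that overlap.

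The other 8 genes of the first 10 include several with few reads. Mcm6, a subunit of the replicative DNA helicase, had a median of 85.9 CPM (52.9 to 116) with Sst and 51.8 CPM (24.0 to 82.8) without, a log2 difference of 0.79 ± 0.21 (SE). With WT Ngn3 the order was the opposite, at 23.1 CPM in the pool with Sst and 37.4 to 117 CPM in the 15 without, though the former is 1 pool. Hs6st2, a heparan sulfate sulfotransferase, had medians of 10.01 and 22.5 CPM and a log2 difference of -0.99 ± 0.27 (SE). Acot11, an acyl-CoA thioesterase, had medians of 0.619 CPM with and 5.59 CPM without Sst. Lrrc15 had 6 reads in all pools with Sst and 43 in those without, and Scara5, a ferritin receptor, had 53 and 4.

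In 3 of the 10, 1 class had almost no reads. Each of these 3 met the filter, detection in at least 5 of the 18 libraries, through the class where it is high. A nearly empty other class is thus favored by the filter, and the folds that follow are descriptions only. Mt3, a metallothionein, had 21 reads in 7 of the 8 pools with Sst and 0 in those without, at least 6.44-fold higher when 3 reads over the class are taken as the limit. Gm42852 had 0 reads with Sst and 16 without, at least 5.80-fold lower. The RNA 9430025C20Rik had 28 reads with Sst and 1 without, a ratio of 25.8 with a 95% counting interval of 4.26 to 1054. Acot11, 9430025C20Rik, Gm42852 and Hs6st2 each overlap another annotated gene. The edgeR adjusted p of all 8 genes was 1.00 after rounding.

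Apart from Sst, the CPM ranges of the classes did not overlap for 2 of the 19629 genes (0.0102%), which are named for that reason after their values were seen. Whether this exceeds the number of genes that would separate by chance was not tested. Igsf10 had 0.922 to 3.68 CPM in the pools with Sst and 0 to 0.719 CPM in those without. Nipa1, a magnesium transporter, had 2.94 to 5.92 CPM and 1.06 to 2.57 CPM. Both were supported by few reads, 52 and 4 for Igsf10 and 129 and 50 for Nipa1, and neither passed the edgeR test (adjusted p = 1.00 for each). Igsf10 overlaps the annotated genes Med12l and Gm38186 and Nipa1 overlaps 5 others. Their counts may therefore be incomplete, through ambiguous reads that were left out, or not fully separable from these.

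None of the known markers of delta cells passed the test between the classes. Of the 11 markers listed beside Sst, 10 could be tested, 0 passed in edgeR, 8 had a positive difference (49.957% of all genes tested did) and 1 had an unadjusted p under 0.05 (3.62% of all genes). The median log2 difference of the 10 was 0.30, against 0.00 over all genes tested. Their summed level was 121 to 433 CPM with Sst and 81.2 to 224 CPM without. The pools are therefore described by Sst alone and are not called delta-like.

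Hhex was present in every pool of both classes. Its levels with Sst ran from 46.0 to 131 CPM (median 89.9) and those without from 32.5 to 120 CPM (median 60.7), and the ranges overlap. The 120 CPM were in pool 1 of replicate 3, while the other 7 pools without Sst reached at most 73.0 CPM and 6 of the 8 with Sst had at least 75.1 CPM. The log2 difference was 0.32 ± 0.17 (SE, edgeR adjusted p = 1.00), and it was positive in 3 of 3 replicates, with the same sign in all 3 for 25% of all genes tested. Cells with GFP only had more, 203 to 341 CPM, and the no-color controls of 8 days had 129 to 500 CPM, so Hhex was not restricted to cells with Sst in these cultures.

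Rbp4 was most abundant in some of the pools richest in Sst. Pools 1 and 4 of replicate 2 had 192 and 69.1 CPM and pool 5 of replicate 1 had 62.0 CPM, while the other 5 pools with Sst ranged from 4.91 to 26.9 CPM. Those without Sst had 1.01 to 19.1 CPM. The log2 difference was 1.64 ± 0.79 (SE, edgeR adjusted p = 1.00), and GFP-only cells had 9.76 to 31.9 CPM.

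Isl1 was at 4.53 CPM or more in every 6S-A Ngn3 pool of either class, against at most 0.919 CPM in the GFP-only pools, a difference not tested here. With Sst it ranged from 17.8 to 89.2 CPM (median 55.5) and without from 4.53 to 66.7 CPM (median 26.2). Its log2 difference of 1.10 ± 0.54 (SE, edgeR adjusted p = 1.00) was positive in 3 of 3 replicates. Ptprz1, a receptor tyrosine phosphatase, had 0 to 9.78 CPM with and 0 to 1.51 CPM without Sst, with 63 and 8 reads and a log2 difference of 2.68 ± 1.12 (SE).

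Of the remaining markers, the fatty acid receptor Ffar4 had a log2 difference of 0.71 ± 0.46 (SE), the factors Etv1 and Pdx1 had 0.29 ± 0.30 and 0.27 ± 0.36, and the cholinesterase Bche had 0.03 ± 0.55. The leptin receptor Lepr (-0.54 ± 1.18) and the calcium-sensing receptor Casr (-1.32 ± 1.24) had 30 and 32 reads over all 16 pools. Ghsr had no read in any of the 16 pools.

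**Figure D3:**
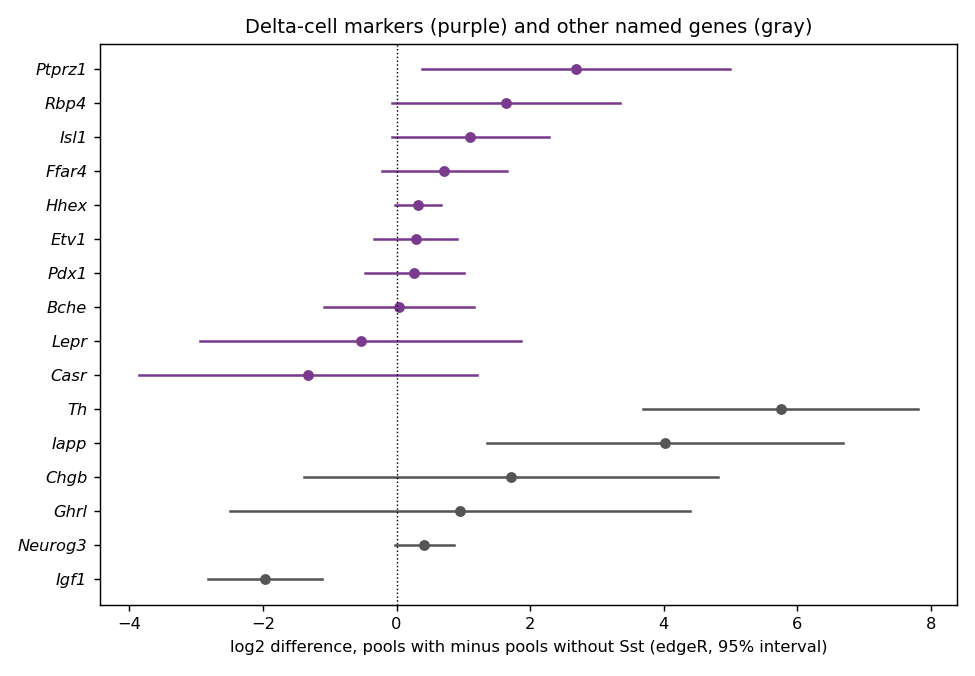
Log2 difference between pools with and without Sst (edgeR, horizontal axis) with its 95% interval for the 10 tested delta-cell markers in purple and 6 other genes in gray. The intervals of Th (5.75), Igf1 (-1.97), Iapp (4.02) and Ptprz1 (2.68) leave out 0 before adjustment, and those of Hhex and Rbp4 do not.

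Other islet hormones varied widely between the pools of each class or had few reads. Ghrl, which encodes ghrelin of epsilon cells, was in 15 of 16 pools, from 2.51 to 911 CPM with Sst and from 0 to 2079 CPM without, and the highest value of all was in pool 1 of replicate 3, a pool without Sst. Its medians were 83.9 CPM with and 20.4 CPM without Sst, and the log2 difference was 2.83 in replicate 1, 3.16 in replicate 2 and -3.39 in replicate 3. Ppy and Pyy, of PP cells, reached 23.2 and 25.8 CPM in pool 4 of replicate 2 and at most 0.586 CPM elsewhere, with 72 of 73 reads of Ppy and 80 of 80 of Pyy in pools with Sst. Gcg, which encodes glucagon, had 2 reads, both in pools with Sst of replicate 2. Neither insulin gene had a read in the 16 pools.

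Iapp, the islet amyloid polypeptide stored with insulin in beta cells, was found at 5.36 CPM in pool 4 of replicate 1, at 4.69 and 1.63 CPM in pools 1 and 4 of replicate 2 and at 3.82 CPM in pool 6 of replicate 3. The other 4 pools with Sst had no read of it, and those without had 0 to 0.719 CPM. Its log2 difference was 4.02 ± 1.30 (SE, edgeR adjusted p = 1.00), on 45 and 4 reads. Chgb, the granule protein chromogranin B, ranged from 3.51 to 1126 CPM with and from 0 to 107 CPM without Sst, a log2 difference of 1.71 ± 1.43 (SE).

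Neurog3, which counts the transgene together with any endogenous transcript, was at 78.7 to 271 CPM with Sst (median 145) and at 51.1 to 223 CPM without (median 152). The log2 difference within replicates was 0.42 ± 0.21 (SE, edgeR adjusted p = 1.00) and was positive in 3 of 3 replicates, although the medians over all pools ran the other way. With log2(Neurog3 CPM + 1) as a covariate, 0 genes passed in edgeR, 583 had an unadjusted p under 0.05, and Th had a log2 difference of 5.002 ± 1.138 (SE, edgeR adjusted p = 0.954).

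The 18 gene lists examined covered the endocrine program and other cell types. Over these lists, 184 distinct genes were tested and 0 passed in edgeR. At an unadjusted p under 0.05, 10 (5.43%) were higher with Sst, against 1.96% of all genes, and 0 were lower. A positive log2 difference was found for 122 of the 184, with a median of 0.13, against 49.957% and a median of 0.00 for all genes tested. Picked out by their p, these genes included Ptprz1, Iapp, Sstr1, Fev, Ddc, Pcsk1n, Cplx2 and Mcm6. The lists were drawn up with earlier results of these data known, so this share is a description.

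Among 17 endocrine progenitor transcription factors, 0 passed, 11 had a positive difference and the median log2 difference was 0.13. Of 23 secretory granule and exocytosis genes, 18 had a positive difference with a median of 0.30, and the prohormone convertase inhibitor Pcsk1n (1.77 ± 0.81, SE) and the complexin Cplx2 (0.35 ± 0.17, SE) had an unadjusted p under 0.05. Of 5 tested enteroendocrine and enterochromaffin markers, 4 had a positive difference with a median of 1.42. These included Fev, a transcription factor of serotonin-producing cells, which had a median of 12.5 CPM with and 1.27 CPM without Sst, and Ddc, the decarboxylase that acts after tyrosine hydroxylase, at 4.86 and 2.00 CPM.

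The 7 tested alpha-cell markers had a median log2 difference of 0.50, and 5 of them had a positive difference. The 5 beta-cell markers had -0.12, with Ins1, Ins2, Mafa and Ucn3 at 0 reads. Of the PP-cell and epsilon-cell markers, Ghrl and the somatostatin receptor Sstr1 could be tested, with a median of 1.73. The 3 tested members of the somatostatin receptors and somatostatin family had 0.78, of which Sstr1 (2.50 ± 1.03, SE) rested on 57 reads and Sstr2 was at medians of 33.4 and 21.5 CPM.

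Genes that report cAMP signaling or an immediate early response, which were listed because Sst is a known cAMP target, differed little. The 12 members had a median log2 difference of 0.08, and their summed level was 3513 to 5235 CPM with Sst and 2882 to 5071 CPM without. The 17 Notch pathway genes (0.03), 7 Cdk inhibitor genes (0.02) and 12 stress and unfolded protein response genes (0.09) were likewise near the median of all genes. The 17 pan-neuronal genes had a median of 0.30 with 15 positive differences, none of which passed.

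The 18 cell cycle genes had a median log2 difference of -0.40. They were split by role after their values were seen, so no test was made of the split. The 7 genes of replication and its onset (Mcm2, Mcm3, Mcm5, Mcm6, Pcna, Ccne1 and Ccne2) had differences from 0.02 to 0.79. Of the 11 genes of the later cycle and mitosis, 10 had negative differences, and Bub1 had 0.40 ± 0.85 (SE). The 10 ran from -3.22 ± 2.23 for Ccnb1 to -0.33 ± 1.21 for Top2a. Class medians were nevertheless higher with Sst for Mki67 (8.01 and 7.61 CPM), Ccnb2 (8.47 and 4.51), Plk1 (3.79 and 2.71) and Birc5 (3.33 and 2.58). They were lower with Sst for Top2a, Ccna2, Ccnb1, Cdk1, Aurka and Aurkb. Single pools without Sst reached 224 CPM of Top2a and 95.5 CPM of Mki67. None of the 18 passed in edgeR.

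Cells of other kinds were compared through their markers. The 16 ductal genes had a median log2 difference of 0.00, with a summed level of 12489 to 15305 CPM with Sst and 11696 to 18734 CPM without, so both classes carried the ductal program. The 6 tested acinar genes (0.09) summed to 5.48 to 15.98 CPM and 1.497 to 14.8 CPM, with Ptf1a, Cpa1, Cela2a and Pnlip at 0. The 3 tested fibroblast and stellate markers (0.11) were almost all Vim, with Col3a1 and Thy1 at 0 and sums of 16.6 to 131 CPM and 35.1 to 133 CPM. The 5 tested immune and endothelial markers (0.98) summed to 76.8 to 219 CPM and 52.5 to 213 CPM, with Cd14 at medians of 84.1 and 68.5 CPM and Lyz2, Cd3e and Cdh5 at 0. Kdr, an endothelial receptor, reached 105 CPM in a pool with Sst and at most 4.59 CPM without, with medians of 0.436 and 0.651 CPM and a log2 difference of 2.69 ± 1.89 (SE), and its part in the results was not tested.

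**Figure D4:**
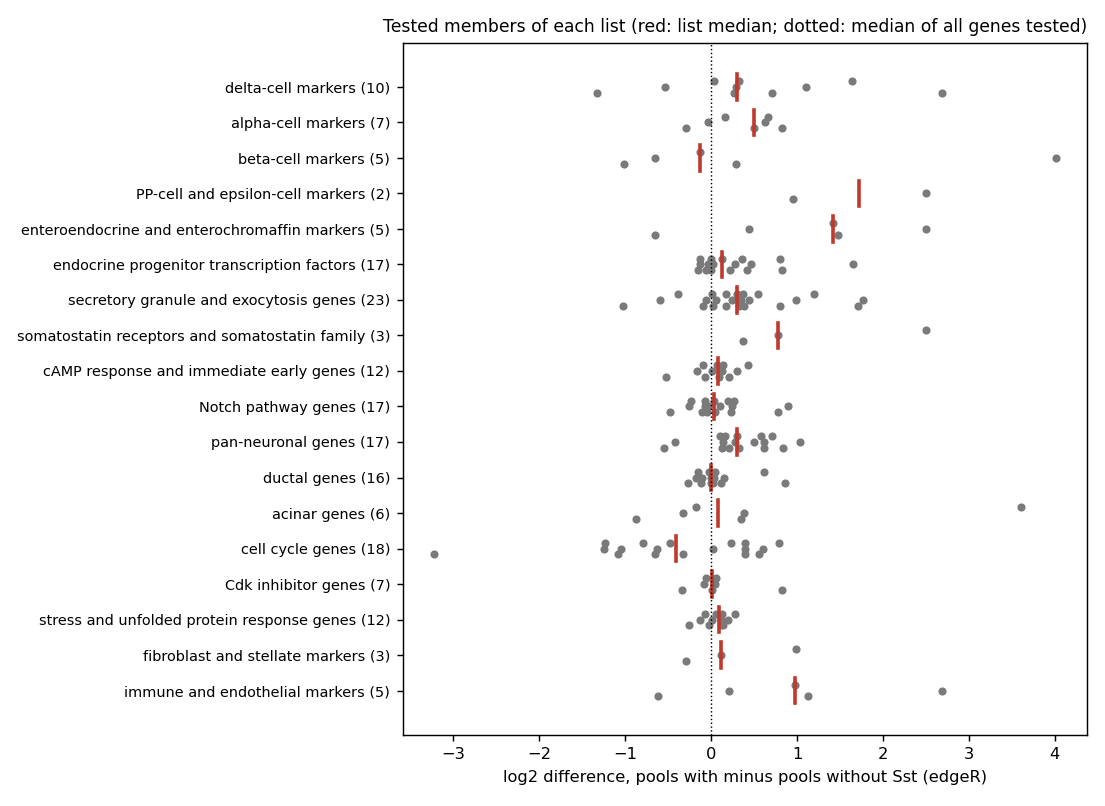
Log2 difference between pools with and without Sst (edgeR, horizontal axis) for each tested member of the 18 gene lists, with the number tested in parentheses, the list median in red and the median of all genes tested as a dotted line. The delta-cell list has a median of 0.30, the ductal list of 0.00 and the cell cycle list of -0.40, and 0 of the 184 genes passed the test.

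Pools that the classes did not use gave mixed values for Th. The WT Ngn3 pool with Sst had 4.68 CPM of Th, but 5 WT pools without Sst had 3.45 to 17.5 CPM, and 8 of 16 WT pools had at least 1 read. GFP-only cells had no read of Th in 16 pools. With 1 WT pool above the limit no separate test within WT Ngn3 was made. A joint fit of both proteins, in which that pool is assumed to vary like the others, called 0 of 22257 genes (0%) in edgeR between it and the WT pools without Sst and 0 (0%) for the difference of the contrasts between the proteins, with 1828 (8.21%) and 1909 genes at an unadjusted p under 0.05. Both counts rest on an arm of 1 pool and do not show whether the proteins differ. For Th the difference of the contrasts, 6S-A minus WT, was 4.25 ± 3.33 (log2, SE).

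At 8 days the 11 Ngn3 libraries are given as values only. Among the 5 libraries of 6S-A Ngn3 with Sst, Th stood at 19.0, 13.6 and 38.2 CPM in replicate 1 and at 0.507 and 8.82 CPM in replicate 2. Among the 3 of WT Ngn3 with Sst it stood at 43.3 and 0.834 CPM in replicate 1 and had no read in replicate 2. That last library, with 849278 reads on genes, misses the study's limit on reads, and 3 of its reads are 3.53 CPM. The 3 libraries with Sst at or below 10 CPM had 0 to 0.659 CPM of Th. Th was thus above 8 CPM in 5 of the 8 libraries with Sst and below 1 CPM or without a read in the other 3.

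Rbp4 was 88.3 to 359 CPM in the 8 libraries of 8 days with Sst and 16.8 to 27.0 CPM in the 3 others. Casr was 0.662 to 11.1 CPM in the 8 and had no read in the 3, Iapp was 0.507 to 98.2 CPM and 0 to 0.330 CPM, and Ghrl was 22.7 to 2207 CPM and 1.32 to 34.0 CPM. Hhex was not higher with Sst, at 36.5 to 216 CPM in the 8 and 121 to 217 CPM in the 3. Without the library under the study's limit, the lowest values with Sst were 110 CPM for Rbp4 and 68.9 CPM for Hhex. Of the 3 libraries without Sst, 2 are the passage 5 replicate, so at 8 days Sst and passage cannot be told apart for them.

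**Figure D5:**
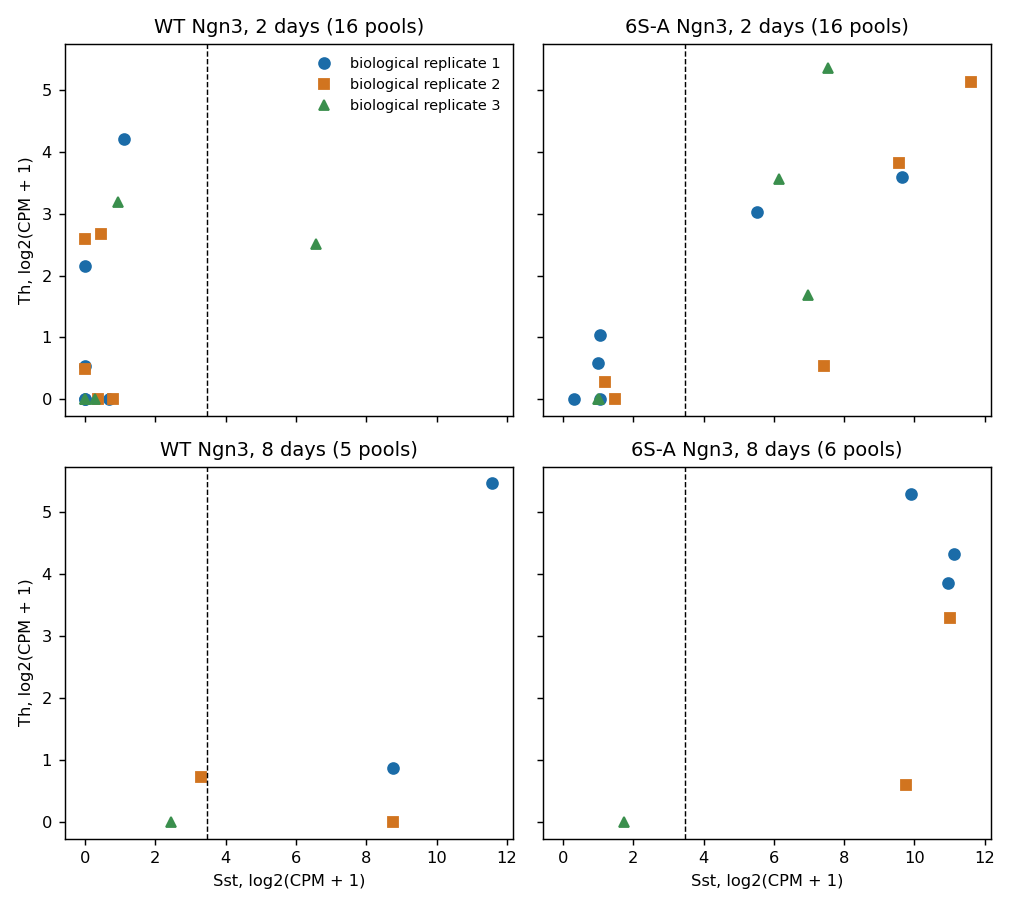
Th against Sst, both as log2(CPM + 1), in every pool expressing WT or 6S-A Ngn3 at 2 and 8 days, colored by biological replicate, with the dashed line at 10 CPM of Sst. In 6S-A Ngn3 at 2 days the pools without Sst have at most 1.06 CPM of Th, whereas with WT Ngn3 pools without Sst reach 17.5 CPM.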

How the data were processed

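The authors aligned the reads with GSNAP to mm10 and counted them per Ensembl gene with HTSeq 0.5.3p3 (version from the submitters' processing notes), and the deposited table holds raw counts per gene and library for 46078 genes and 92 spike-ins. Of its reads, 22.5% were not aligned, 14.4% overlapped no gene and 8.06% were ambiguous, and these stayed out of library sizes. The single-cell library kit does not mark strand. All 18 libraries of 6S-A Ngn3 at 2 days pass the study's limits (a spike-in share below 30%, at least 1000000 gene reads and 10000 detected genes). CPM is per 1000000 reads on mouse genes. Genes detected in at least 5 of the 18 libraries were tested with edgeR 4.0.16 in R 4.3.3 (TMM, robust quasi-likelihood F test, biological replicate as block, Benjamini-Hochberg over all genes, threshold 0.05), with DESeq2 1.42.0 as an alternative. The code was tested on simulated data. The members, classes and lists were chosen with earlier results of these data known.

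Named by rule are Sst, Neurog3, the delta-cell markers, list genes or up to 20 higher and 10 lower genes past the threshold and, with fewer than 5 such genes, the 10 with the smallest p. Others are said to be chosen after their values were seen, as are Iapp, Ghrl, Chgb and the list members named by value. Alternatives were other Sst limits, a slope on Sst, libraries apart or summed, other scaling, filters and covariates, and leaving out each pool or replicate, and, chosen after seeing the data, replicate 3 split in the block or without its pools 5 and 6. Gene coordinates are from GENCODE M21. Some list members are not reported here.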

Additional observations from a re-analysis of the deposited data

Results flagged for a closer look

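Within the class of 8 pools with Sst, 1 pool stood far from the others for 8 measures: pool 2+3 of replicate 3 for the share of spike-in reads (0.246%) and Casr (1.72 CPM), pool 1 of replicate 2 for Sst (3099 CPM) and Rbp4 (192 CPM), pool 5 of replicate 1 for Etv1 (22.2 CPM), pool 4 of replicate 2 for Ptprz1 (9.78 CPM), and pool 6 of replicate 3 for Hs6st2 (19.7 CPM) and Chgb (1126 CPM).

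Among the 8 pools without Sst the same held for 7 genes: pool 1 of replicate 3 for Hhex (120 CPM) and Ghrl (2079 CPM), pool 4 of replicate 3 for Casr (6.54 CPM) and Gm42852 (3.02 CPM), pool 2 of replicate 1 for Th (1.06 CPM) and 9430025C20Rik (0.353 CPM), and pool 2+3 of replicate 2 for Chgb (107 CPM). These are 15 of 66 sets of 8 values examined, where about 1 in 20 is flagged by chance for values with a normal spread, which CPM of scarce genes do not have.

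Outside the comparison, Sst was above the limit of 10 CPM in the close pair of replicate 3 of WT Ngn3 at 2 days (93.5 CPM) and in a no-color control of WT Ngn3 at 8 days (15.4 CPM). Sst above the highest GFP-only level (1.12 CPM) was more frequent: 10 of 12 no-color controls of 8 days lay at 1.74 to 15.4 CPM, and the next WT pool of 2 days had 1.16 CPM.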

How the results depend on the processing

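The 0 genes that passed in edgeR with the replicate block became 1 with no replicate block (Th), 1 with a slope on log2(Sst CPM + 1) (Th), 1 with all 18 libraries kept apart (Th), 4 with libraries summed per replicate and class (Th, Mmp9, Ctla2a, Sox7), 2 in DESeq2 (Th, Igf1), 1 with pools 5 and 6 of replicate 3 left out (Th) and 33 with no filter on low counts. In the last of these the prior degrees of freedom were estimated as infinite, against 16.8 in the fit reported. It called Th, Igf1, Rbp4, Isl1, Chgb, Ghrl, Mcm6 and Edn1 among others. Leaving out a pool or a replicate gave 0 to 2 calls: Th and Edn1 without replicate 2, Ltf without pool 5 of replicate 1, and Th without pool 6 of replicate 2 or pool 6 of replicate 3. The other settings gave 0, among them a block with replicate 3 split into repeats 1 to 4 and 5 to 6. That block and the fit without pools 5 and 6 were chosen after seeing the data, and for all changes apart from leaving out samples the cause was not tested. Limits of 5 and 20 CPM leave the classes as they are.

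The pairing of pools by replicate number is the block, since the labels give pools of 1 number as repeats of 1 biological replicate. For the difference between the proteins the fit with no replicate block gave 0 genes, which says nothing on stability because the WT side is 1 pool. For Th the log2 difference ran from 3.38 to 7.29 over the other settings that compare classes, past the threshold in 10 of 35, and for Igf1 from -2.53 to -1.09, past it in 2 of 35. The settings reuse the same pools, so neither count is a share of independent tests. Neurog3 with its own level as covariate (-0.0094) is near 0 by construction and says nothing on stability. Of 935 gene values under other settings, 19 others changed sign, all for genes that did not pass: Bche (-0.059 with no replicate block, -0.85 with a limit of 100 CPM, -0.024 per log2 unit of Sst, -0.067 summed, and -0.35 to 0.33 leaving out samples), Ghrl (-0.43 with no replicate block, -0.21 to 3.13 leaving out samples), Lepr (0.30 with replicate 3 split, 0.29 without its pools 5 and 6, -1.46 to 1.11 leaving out samples) and, leaving out samples, Casr (-2.21 to 0.35) and Pdx1 (-0.082 to 0.46). Alternatives listed for a separate test within WT Ngn3 were not run, since 1 pool held Sst, and that contrast was taken from the joint fit alone. Depth limits genes of a few reads, such as Mt3, Igsf10 and Iapp, for which 1 class is near 0.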
